A study of Mus musculus with 10 samples.

Results

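Brown adipose tissue draws fatty acids out of the blood, and 10 genes that carry out this step were followed in interscapular brown adipose tissue (iBAT) of mice with and without the receptor tyrosine kinase AXL. The genes were chosen by name as the core of lipoprotein hydrolysis and fatty acid uptake: Lpl, Gpihbp1, Angptl4 and Lmf1 for hydrolysis, Vldlr as receptor, Cd36 and Slc27a1 for uptake at the plasma membrane, and Fabp3, Fabp4 and Fabp5 for binding inside the cell. They are 10 of 41249 gene identifiers in the count tables. The rule that names them uses no measured value, but the list was chosen with earlier results of these data known. All 10 were expressed above the limit for testing, a mean above 1 CPM (counts scaled to the size of each library, TMM-normalised).

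RNA of the whole depot was sequenced from 5 Axl KO mice and 5 wild-type (WT) mice. All animals were males on a C57Bl6 background. Both genotypes received a high-fat diet (HFD) at room temperature, which per the sample records lasted 24 weeks and began at 6 to 8 weeks of age. The paper's text gives a slightly longer diet, and its methods give an older starting age for Axl KO mice on HFD. The Axl KO is a constitutive loss in the whole body, made from knockout-first ES cells whose gene-trap cassette (splice acceptor, LacZ and neomycin resistance) lies inside Axl. An effect of AXL in brown adipocytes cannot be told apart from one in vessels, immune cells or other organs, and there was no group on a standard diet. Each library is 1 mouse. The SD given below is the spread between mice, whereas SE and intervals come from the model fitted for edgeR's quasi-likelihood test.

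Triglycerides reach adipose tissue in chylomicrons and very-low-density lipoproteins. Lipoprotein lipase (LPL), secreted by adipocytes and carried by GPIHBP1 to the capillary wall, splits them into fatty acids, ANGPTL4 inactivates the enzyme, and the chaperone LMF1 is needed for it to fold. The fatty acids enter through CD36 and fatty acid transport proteins and are carried in the cytosol by fatty acid-binding proteins (FABPs), and active brown fat is known for a high capacity for this uptake.

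The FABPs are close relatives, and the second exon of Fabp3, Fabp4 and Fabp5 is shown because it has the same length, 173 bases, in all 3 genes, so that bases can be set against each other without gaps. It is coding throughout. In GRCm38 it lies at chr4:130312291-130312463 on the plus strand in Fabp3, at chr3:10205950-10206122 on the minus strand in Fabp4 and at chr3:10014971-10015143 on the plus strand in Fabp5. Capitals mark the 83 bases (48.0%) that were identical in all 3 genes, and each sequence runs 5′ to 3′ along the mRNA.
Fabp3: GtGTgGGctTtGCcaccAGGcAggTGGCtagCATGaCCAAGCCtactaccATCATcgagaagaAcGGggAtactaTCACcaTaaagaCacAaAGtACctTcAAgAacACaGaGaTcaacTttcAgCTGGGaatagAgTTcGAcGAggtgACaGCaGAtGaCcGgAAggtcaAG
Fabp4: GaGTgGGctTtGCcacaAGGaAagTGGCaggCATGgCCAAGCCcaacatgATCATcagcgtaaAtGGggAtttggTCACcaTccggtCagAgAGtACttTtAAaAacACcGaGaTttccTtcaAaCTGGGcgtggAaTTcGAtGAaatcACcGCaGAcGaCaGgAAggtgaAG
Fabp5: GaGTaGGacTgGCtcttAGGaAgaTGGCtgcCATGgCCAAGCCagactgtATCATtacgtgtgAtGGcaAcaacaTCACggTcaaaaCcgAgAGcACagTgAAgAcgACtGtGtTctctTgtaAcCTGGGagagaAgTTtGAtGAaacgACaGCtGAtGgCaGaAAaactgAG
Fabp3 and Fabp4 were identical at 70.5% of these bases, Fabp4 and Fabp5 at 59.5%, and Fabp3 and Fabp5 at 57.2%. The longest run shared by a pair of principal transcripts was 14 bases for Fabp3 and Fabp4, 12 for Fabp4 and Fabp5, and 10 for Fabp3 and Fabp5. No 50-base stretch of these transcripts was thus shared between any of the 3 FABPs.

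The same comparison with the rest of the annotated transcripts set a limit for a few members. Of the 50-base windows of the principal transcript, 37.3% of those of Fabp3 (289 of 774) and 21.1% of those of Fabp5 (198 of 938) occurred in at least 1 other gene. Most of them were windows of the pseudogenes Fabp3-ps1 (226 windows) and Gm6166 (184 windows), neither of which has an entry in the count tables. For Lpl the share was 4.11% and for Slc27a1 1.75%, and for the other 6 members no window was shared. Fabp3 was also the only member whose exons overlapped other genes, 81 bases of Zcchc17 (123 to 201 counts per mouse) and 80 bases of Gm10570 (1 to 18 counts), both on the opposite strand. Fabp3 held 4240 to 8012 counts per mouse. How reads with several matches and reads in overlaps were counted is not given in the sources used here, so the values of Fabp3 and Fabp5 carry this uncertainty.

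Total counts were between 5431014 and 9580215 per mouse. Axl itself (ENSMUSG00000002602, chr7:25757273-25788705) had 1.57 ± 0.646 CPM in Axl KO mice and 43.1 ± 5.86 CPM in WT mice (mean ± SD, n = 5 each) and was the only gene that passed an adjusted p of 0.05 in edgeR's quasi-likelihood test. The brown adipocyte markers Ucp1 (2990 to 7632 CPM) and Cidea (1501 to 1975 CPM) were abundant in every mouse, as the tissue label has it. The summed level of 10 skeletal muscle markers ranged from 6.16 to 4052 CPM between mice, and its part in the results below was not tested. Of the white adipocyte markers 0 of 5 tested and of the erythroid markers 0 of 5 had an unadjusted p under 0.05 (8.40% of all genes). The white marker Hoxc9 was at 0 counts in all mice. White adipocyte markers summed to 211 to 661 CPM in Axl KO mice and 286 to 600 CPM in WT mice, and erythroid markers to 384 to 714 and 474 to 666 CPM. The most abundant markers of the other lists ranged over the 10 mice from 131 to 179 CPM for Kdr and 91.5 to 141 CPM for Pecam1 (endothelium), and from 23.0 to 46.6 CPM for Mrc1 and 22.9 to 40.3 CPM for Csf1r (macrophages). The range was 176 to 595 CPM for Lep and 18.3 to 49.6 CPM for Nnat (white adipocytes), 0.902 to 1263 CPM for Myh4 and 1.20 to 658 CPM for Acta1 (muscle), and 232 to 429 CPM for Hbb-bs and 61.9 to 123 CPM for Hba-a1 (red cells). Axl KO replicate 3 stood apart, in that 2028 genes (14.8%) had an unadjusted p under 0.05 without it and 1154 (8.40%) with it.

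None of the 10 genes passed the test of a difference between the genotypes. The quasi-likelihood test of edgeR, adjusted by Benjamini-Hochberg over 13739 genes, called 0 of 10 members at an adjusted p of 0.05 (0.00728% of all tested genes). At an unadjusted p under 0.05 there were also 0 of 10, where 8.40% of all genes passed, 4.54% higher and 3.86% lower in Axl KO mice. Without Axl KO replicate 3 the latter count was 2 of 10, Lpl and Fabp4, beside 14.8% of all genes. In every member the values of the 2 genotypes overlapped, whereas 1.35% of all genes showed no overlap. With DESeq2 the adjusted test called 0 of 10 members (0.0655% of all genes), and the unadjusted test 1, Fabp4 (6.93% of all genes). Mean levels were higher in Axl KO mice for 7 members and lower for 3, with a median log2 fold change of 0.05, and over all tested genes 49.8% were higher and the median was 0.00. The 95% intervals of all 10 members lay within a 2-fold change in either direction, as did those of 91.8% of all genes. The widest of them, that of Angptl4, ran from -0.69 to 0.44 on the log2 scale.

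**Figure D1:**
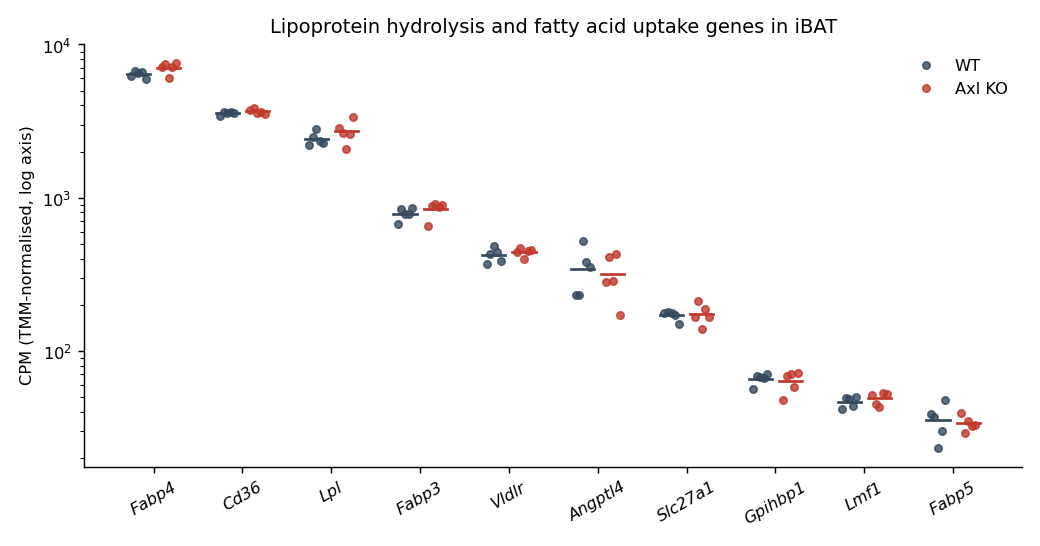
TMM-normalised CPM (log axis) of the 10 members in each mouse, with blue points for WT mice, red points for Axl KO mice and a bar at each group's mean (n = 5 each). The points of the genotypes overlap for every gene, from Fabp4 at 5915 to 7547 CPM down to Fabp5 at 23.2 to 47.3 CPM.

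Lpl (ENSMUSG00000015568, chr8:68880491-68907448) encodes the lipase that frees fatty acids from circulating triglycerides. Its level in the 5 Axl KO mice was 2846, 2652, 2064, 2593 and 3361 CPM. In the 5 WT mice it was 2193, 2474, 2802, 2360 and 2260 CPM. The highest and the lowest of the 10 mice were both Axl KO mice, replicates 5 and 3, and the WT range lay inside the Axl KO range. The means were 2703 ± 468 and 2418 ± 240 CPM, a log2 fold change of 0.16 (SE 0.114, 95% interval -0.09 to 0.41). The adjusted p was 0.704 (edgeR's quasi-likelihood test), and the two-sided exact permutation test over the 252 splits of the 10 mice gave p = 0.270, where 0.00794 is the smallest it can give. Single mice moved this value: without Axl KO replicate 3 it was 0.24 (adjusted p = 0.262, unadjusted p = 0.0228), and without Axl KO replicate 5 it was 0.07.

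Gpihbp1 (ENSMUSG00000022579, chr15:75596628-75599481) encodes the capillary protein that holds LPL at the vessel wall, and is made by endothelial cells rather than adipocytes. It was at 48.0, 68.2, 70.8, 57.9 and 71.3 CPM in Axl KO mice and at 56.2, 67.9, 67.5, 66.4 and 70.5 CPM in WT mice. Replicate 1 was the lowest mouse of each genotype, Axl KO replicate 4 came next, and the other 7 mice lay close together. The difference was -0.06 on the log2 scale (SE 0.106, 95% interval -0.28 to 0.17, adjusted p = 0.903 by edgeR's quasi-likelihood test), and it turned to 0.03 without Axl KO replicate 1. Of 9 endothelial markers, 7 had a lower mean in Axl KO mice, while over all tested genes 49.8% had a higher one. Cldn5 (12.9 ± 4.18 against 21.7 ± 4.89 CPM) and Egfl7 (67.6 ± 10.6 against 84.0 ± 11.7 CPM) had an unadjusted p under 0.05. These were 2 of 9, beside 8.40% of all genes, or 3.86% lower in Axl KO mice. None of the 9 passed adjustment. Their summed level was 552 to 695 CPM in Axl KO mice and 566 to 800 CPM in WT mice. In RNA of a whole depot, fewer cells of a type and less RNA per cell cannot be told apart, and the part of vessel content in the level of Gpihbp1 was not tested. The ratio of Lpl to Gpihbp1 in CPM, not scaled for length, ran from 29.2 to 59.3, with the lowest and the highest value again in Axl KO mice (replicates 3 and 1).

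Angptl4 (ENSMUSG00000002289, chr17:33773750-33781830) encodes the secreted inhibitor of LPL and is a classical target of the fatty acid-sensing PPAR receptors. It varied most among the members. Axl KO mice had 279, 412, 285, 426 and 171 CPM, and WT mice had 233, 231, 521, 379 and 351 CPM. The highest mouse (WT replicate 3) exceeded the lowest (Axl KO replicate 5) by 3.05-fold, and high and low mice occurred in both genotypes. The means of 315 ± 106 and 343 ± 120 CPM gave a log2 fold change of -0.12 (SE 0.261, 95% interval -0.69 to 0.44, adjusted p = 0.916 by edgeR's quasi-likelihood test; exact permutation test, p = 0.698). Its direction rested on single mice, with 0.03 without Axl KO replicate 5 and 0.08 without WT replicate 3. The SD of log2 CPM within genotypes was 0.52, and 98.0% of the 8650 genes with a mean of at least 10 CPM had a smaller one.

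A pair of genes from the wider list, which were picked for display after their values were seen, can be set beside Angptl4. Ppara, a fatty acid-sensing nuclear receptor, was at 189, 365, 288, 366 and 206 CPM in Axl KO mice and at 184, 324, 406, 361 and 346 CPM in WT mice. WT replicate 3 was the highest mouse for both Ppara and Angptl4. Axl KO replicates 1 and 5 and WT replicate 1 were the lowest 3 for Ppara. For Angptl4 the lowest 3 were Axl KO replicate 5 and WT replicates 1 and 2. Angptl8, a feeding-induced partner of the ANGPTL inhibitors, was at 35.2, 27.1, 33.9, 25.8 and 15.6 CPM in Axl KO mice and at 71.3, 81.1, 18.6, 23.6 and 33.9 CPM in WT mice. WT replicates 1 and 2, the mice with the highest Angptl8, had the lowest Angptl4 among WT mice, but Axl KO replicate 5 was the lowest mouse for both. The time of the last meal before tissue collection is not given in the sources used here.

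**Figure D2:**
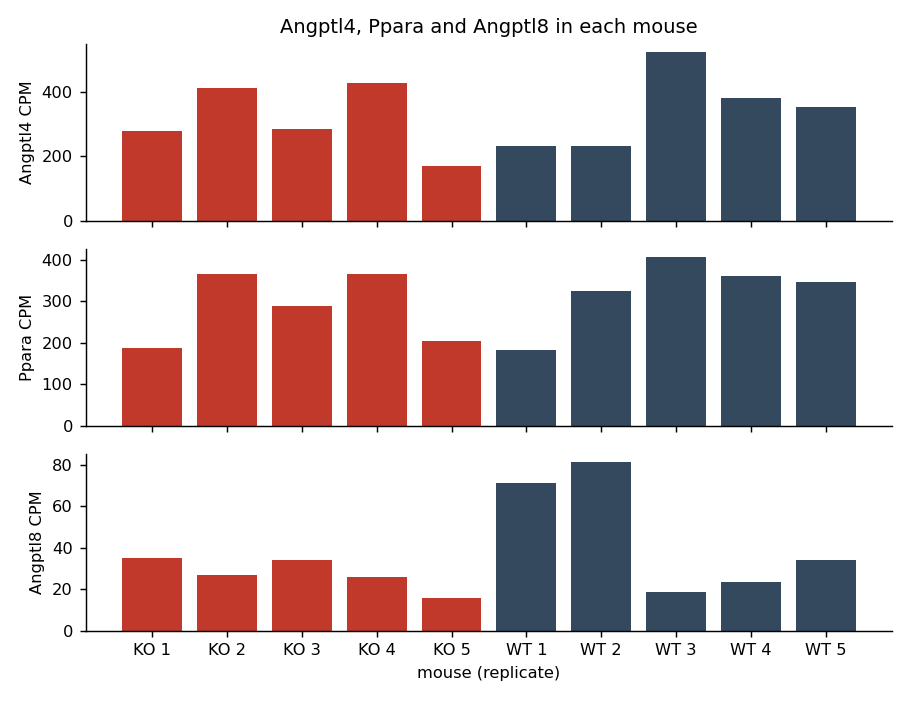
Bars give the TMM-normalised CPM of Angptl4 (top), Ppara (middle) and Angptl8 (bottom) in each of the 5 Axl KO mice (red) and 5 WT mice (blue), on axes that start at 0. Angptl4 spans 171 to 521 CPM across mice of both genotypes, and Angptl8 is highest in WT replicates 1 and 2, at 71.3 and 81.1 CPM.

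Lmf1 (ENSMUSG00000002279, chr17:25579085-25662826) encodes the endoplasmic reticulum factor that LPL needs to mature. It was low, at 51.2, 44.8, 43.1, 52.7 and 52.5 CPM in Axl KO mice and 41.6, 48.8, 48.2, 43.5 and 49.6 CPM in WT mice. In 3 of 5 Axl KO mice the level was above that of every WT mouse, and the others lay within the WT range. The SD of log2 CPM within genotypes was 0.125, near the median of 0.135 among genes with a mean of at least 10 CPM. The log2 fold change was 0.07 (SE 0.0777, 95% interval -0.10 to 0.24, adjusted p = 0.812 by edgeR's quasi-likelihood test).

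Vldlr (ENSMUSG00000024924, chr19:27216484-27254231) encodes the receptor that binds triglyceride-rich particles and aids their hydrolysis. Axl KO mice had 439, 469, 396, 448 and 457 CPM and WT mice 367, 428, 480, 440 and 387 CPM. WT replicate 3 was the highest mouse and WT replicate 1 the lowest, so that the Axl KO values lay within the WT range. The log2 fold change was 0.07 (SE 0.0790, 95% interval -0.10 to 0.24, adjusted p = 0.819 by edgeR's quasi-likelihood test).

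Cd36 (ENSMUSG00000002944, chr5:17781690-17888801), which encodes the main fatty acid translocase of adipocytes, was the steadiest of the members. Its level was 3719, 3821, 3567, 3639 and 3515 CPM in Axl KO mice. In WT mice it was 3398, 3641, 3587, 3603 and 3594 CPM. WT replicates 2 to 5 lay within a narrow band, WT replicate 1 lay below it, and the highest of all mice was Axl KO replicate 2. The means were 3652 ± 122 and 3565 ± 95.1 CPM, a difference of 2.46% (95% interval -5.35% to 10.9%), or 0.04 on the log2 scale (SE 0.0528, adjusted p = 0.873 by edgeR's quasi-likelihood test, exact permutation test p = 0.270). The highest mouse exceeded the lowest by 1.12-fold. The SD of log2 CPM within genotypes was 0.044, and 0.405% of the 8650 genes with a mean of at least 10 CPM had a smaller one, against a median gene at 0.14. Cd36 held 18677 to 34411 counts per mouse. Counting error weighs more on genes with fewer counts, and this comparison was not matched for abundance.

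Slc27a1 (ENSMUSG00000031808, chr8:71568882-71587302) encodes FATP1, an insulin-responsive fatty acid transport protein with acyl-CoA synthetase activity. It had 166, 210, 138, 186 and 167 CPM in Axl KO mice and 177, 179, 175, 171 and 150 CPM in WT mice. The Axl KO mice held both the highest (replicate 2) and the lowest value (replicate 3), and 4 of 5 WT mice were nearly equal. The log2 fold change of 0.03 (SE 0.0986, 95% interval -0.19 to 0.24, adjusted p = 0.964 by edgeR's quasi-likelihood test) changed sign when any of 3 mice was left out, the lowest value being -0.05 without Axl KO replicate 2.

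Fabp4 (ENSMUSG00000062515, chr3:10204088-10208576), the adipocyte FABP and a target of PPARγ, had the highest CPM of the members and the smallest p of the 10. Axl KO mice had 7149, 7465, 6014, 7178 and 7547 CPM. WT mice had 6224, 6730, 6522, 6566 and 5915 CPM. In 4 of 5 Axl KO mice the level was above that of every WT mouse, and Axl KO replicate 3 lay below 4 of the 5 WT mice. The means were 7071 ± 616 and 6391 ± 323 CPM, a difference of 10.6% (95% interval -0.703% to 23.2%), or 0.15 on the log2 scale (SE 0.0719, unadjusted p = 0.0645, adjusted p = 0.601 by edgeR's quasi-likelihood test). The exact permutation test gave p = 0.0714. Without Axl KO replicate 3 the difference was 0.20 (unadjusted p = 0.00376, adjusted p = 0.155), in a fit in which 14.8% of all genes had an unadjusted p under 0.05. With DESeq2 the unadjusted p was 0.0416 and the adjusted p 0.713.

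The brown adipocyte markers can be set beside Lpl and Fabp4, whose levels in RNA of a whole depot cannot be assigned to 1 cell type. Of 9 such markers, 8 had a higher mean in Axl KO mice (49.8% of all genes did) and 4 had an unadjusted p under 0.05 (8.40% of all genes), Dio2, Cox8b, Ucp1 and Cox7a1, none with an adjusted p under 0.05. Ucp1, the uncoupling protein of thermogenesis, was at 5561 ± 1197 CPM in Axl KO mice and 4119 ± 863 CPM in WT mice (log2 fold change 0.43, SE 0.160, adjusted p = 0.571 by edgeR's quasi-likelihood test). The summed level of the 9 markers was 10305 to 13303 CPM in Axl KO mice and 8596 to 10665 CPM in WT mice. Axl KO replicate 5 had the highest sum, the highest Lpl and the highest Fabp4. Axl KO replicate 3 had the lowest sum among Axl KO mice together with their lowest Lpl and Fabp4. WT replicate 3 had the lowest sum of all mice (8596 CPM), the highest Lpl of the WT mice (2802 CPM) and Fabp4 at 6522 CPM. WT replicate 4 had the highest WT sum (10665 CPM), with Lpl at 2360 CPM and Fabp4 at 6566 CPM. The part of the marker levels in those of Lpl and Fabp4 was not tested.

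Fabp3 (ENSMUSG00000028773, chr4:130308595-130315463), the FABP of heart and oxidative muscle that brown fat also makes in large amounts, had 654, 887, 908, 863 and 891 CPM in Axl KO mice. WT mice had 671, 848, 778, 782 and 852 CPM. Replicate 1 was far below the other mice in each genotype, and 4 of 5 Axl KO mice were above every WT mouse. The means of 841 ± 105 and 786 ± 73.5 CPM differed by 0.10 on the log2 scale (SE 0.0967, 95% interval -0.11 to 0.31, adjusted p = 0.799 by edgeR's quasi-likelihood test, exact permutation test p = 0.365). Without Axl KO replicate 1 the value was 0.17 (unadjusted p = 0.0418, adjusted p = 0.814), and without WT replicate 1 it was 0.04 (unadjusted p = 0.650). The 10 skeletal muscle markers summed to 25.0, 6.16, 1754, 635 and 3394 CPM in Axl KO mice and to 3282, 860, 4052, 3185 and 821 CPM in WT mice. All 10 of them had a lower mean in Axl KO mice, none with an unadjusted p under 0.05, while 49.8% of all genes had a higher mean. The 10 markers rose and fell together between mice, so they do not count as 10 separate observations. The part of muscle RNA in the level of Fabp3 was not tested.

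Fabp5 (ENSMUSG00000027533, chr3:10012548-10016607), the epidermal FABP, which is also found in macrophages and endothelium, had the lowest CPM of the 3 FABPs. Axl KO mice had 39.3, 29.2, 34.9, 32.2 and 32.9 CPM, and WT mice 38.8, 36.8, 23.2, 30.1 and 47.3 CPM. The WT mice spread over a wider range that enclosed all Axl KO mice. The log2 fold change was -0.07 (SE 0.156, 95% interval -0.40 to 0.27, adjusted p = 0.926 by edgeR's quasi-likelihood test) and turned to 0.06 without WT replicate 5. Of the 10 macrophage markers, 1 (Trem2) had an unadjusted p under 0.05, beside 8.40% of all genes. The 10 markers summed to 113 to 200 CPM in Axl KO mice and 128 to 190 CPM in WT mice. Of the CPM of the 3 FABPs together, Fabp4 made up 86.4 to 91.2%, Fabp3 8.34 to 13.1% and Fabp5 0.317 to 0.694% in single mice. Fabp4 was thus the predominant FABP transcript in all 10 mice, with principal transcripts of 896 bases for Fabp4, 823 for Fabp3 and 987 for Fabp5.

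WT replicate 1 was below the mean of the 10 mice in 8 of 10 members, and Axl KO replicates 2 and 4 were each above it in 8 of 10. Axl KO replicate 5 was the highest mouse for 3 members (Lpl, Gpihbp1 and Fabp4) and the lowest for Angptl4. WT replicate 1 was the lowest for 3 (Lmf1, Vldlr and Cd36), and WT replicate 3 was the highest for Angptl4 and Vldlr but the lowest for Fabp5. The median deviation of a mouse from the mean of all 10 mice, taken over the 10 members, was between -0.19 (WT replicate 1) and 0.11 (Axl KO replicate 5) on the log2 scale. The 10 genes together took 1.41 to 1.61% of all counts in Axl KO mice and 1.32 to 1.55% in WT mice.

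**Figure D3:**
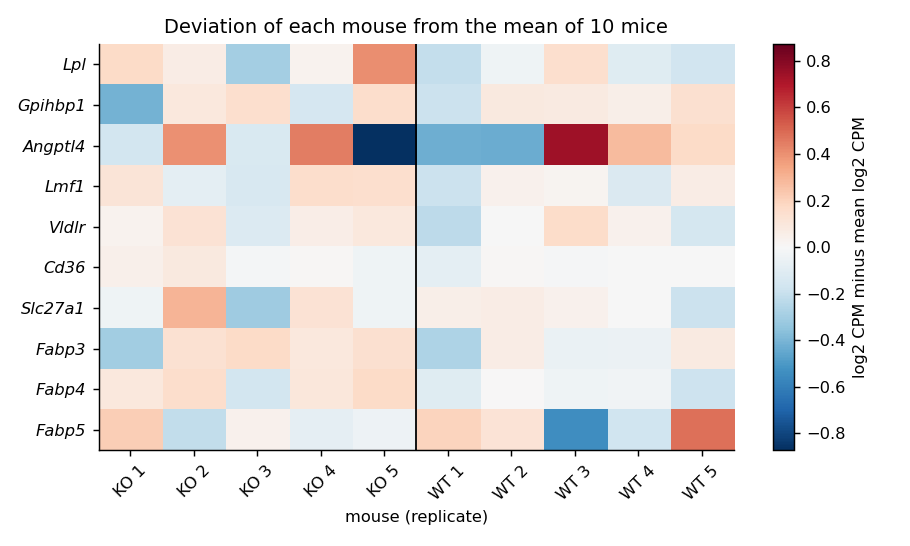
Colour gives log2 CPM of each member in each mouse minus the mean of the 10 mice, from blue (below) to red (above), with Axl KO mice left and WT mice right of the line. Angptl4 has the strongest colours, from -0.87 in Axl KO replicate 5 to 0.74 in WT replicate 3, and the row of Cd36 is nearly blank.

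Levels of different genes can be compared only per length. With the length of the principal transcript, Fabp4 led with 7512 CPM per kilobase on average over the 10 mice, 7.08 times the level of Cd36 (1062), which was followed by Fabp3 (988), Lpl (622), Angptl4 (99.4), Gpihbp1 (78.2), Slc27a1 (61.5), Vldlr (54.1), Fabp5 (34.9) and Lmf1 (25.6). The ranges over mice of neighbours in this order overlapped, except between Fabp4 and Cd36 and between Lpl and Angptl4. Genes further apart in the order could still be separated, since Cd36 was above Lpl, and Angptl4, Gpihbp1 and Slc27a1 were above Fabp5 and Lmf1, in every comparison of single mice. The inhibitor Angptl4 was above the chaperone Lmf1 in every mouse, and Lpl exceeded Lmf1 by 24.3-fold on this scale. With the union of all annotated exons as length, the order was Fabp4 (1499 CPM per kilobase), Cd36 (1005), Fabp3 (988), Lpl (244), Angptl4 (92.9), Vldlr (42.8), Slc27a1 (29.5), Gpihbp1 (25.2), Fabp5 (9.66) and Lmf1 (3.50). The union of Fabp4 is 4489 bases long and its principal transcript 896 bases, which lowers its level per length on that scale. Fabp4, Cd36, Fabp3, Lpl and Angptl4 held the first 5 places on both.

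**Figure D4:**
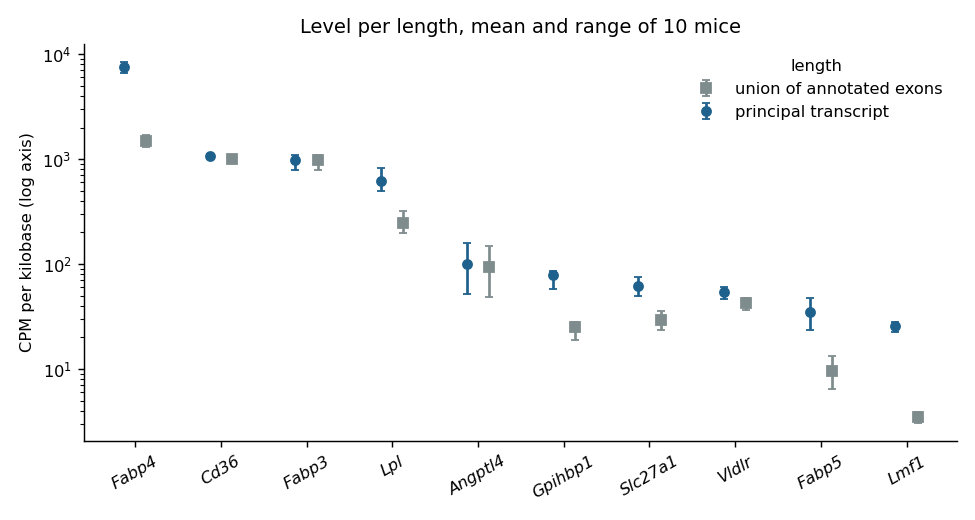
Mean CPM per kilobase (log axis) of each member over the 10 mice, with bars from the lowest to the highest mouse, for the length of the principal transcript (blue circles) and of the union of annotated exons (grey squares). Fabp4 is highest on both scales, at 7512 and 1499 CPM per kilobase, and Lmf1 is lowest, at 25.6 and 3.50.

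Around the 10 members, 60 further gene symbols of the pathway were listed. Of these, 59 have an entry in the count tables and 41 were expressed above the limit for testing. In edgeR's quasi-likelihood test 0 of 41 passed an adjusted p of 0.05, 7 (17.1%, against 8.40% of all genes) had an unadjusted p under 0.05, and the median log2 fold change was 0.01. The count of 7 was 2 without WT replicate 5, 3 without WT replicate 1, 4 without Axl KO replicate 2 or 5, and 11 without Axl KO replicate 3. DESeq2 called 0 as well. One gene showed no overlap of the genotypes, Zdhhc4, named here after its values were seen, with 21.2 ± 0.246 CPM in Axl KO mice and 19.9 ± 0.653 CPM in WT mice (log2 fold change 0.10, adjusted p = 0.727). The 18 genes below the limit included every other FABP on the list, Fabp1, Fabp2, Fabp6, Fabp7, Fabp9, Fabp12 and Pmp2, with at most 5 counts in any mouse. They also included the LPL activator Apoc2, the apolipoproteins Apoa5 and Apob, and hepatic lipase, Lipc, with at most 4 counts.

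Among genes for folding, processing and anchoring of LPL, 2 of 7 tested genes had an unadjusted p under 0.05, in opposite directions. The share over all genes was 8.40%, and counts of 1 or 2 in lists this short cannot be told from it. Pcsk5, a proprotein convertase of the family that cleaves LPL and ANGPTL4, was at 15.1 ± 3.82 CPM in Axl KO mice and 11.6 ± 1.76 CPM in WT mice (log2 fold change 0.36, SE 0.159, adjusted p = 0.579 by edgeR's quasi-likelihood test), and at 0.20 without Axl KO replicate 5. Perlecan, Hspg2, a heparan sulfate proteoglycan of basement membranes, was at 217 ± 20.2 and 257 ± 47.7 CPM (-0.24, SE 0.112, adjusted p = 0.593), and at -0.12 without WT replicate 5. The values of both thus rested largely on 1 mouse each.

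Of the inhibitors and apolipoproteins, 4 were tested and none had an unadjusted p under 0.05 in the main fit (8.40% of all genes). Angptl8 had the lowest fitted value, -0.73 (SE 0.376, 95% interval -1.54 to 0.09, adjusted p = 0.611 by edgeR's quasi-likelihood test), between -0.93 and -0.41 when single mice were left out. Apoc1, which hinders lipoprotein hydrolysis, was at 227 ± 71.2 CPM in Axl KO mice and 172 ± 21.7 CPM in WT mice (0.40, SE 0.186, adjusted p = 0.597), between 0.24 and 0.54 when single mice were left out. Both intervals included 0. The unadjusted p of Apoc1 lay near the threshold, at 0.0508 in edgeR's main fit, 0.0949 in its robust fit and 0.0287 with DESeq2. Without Axl KO replicate 3 it was 0.0022, in a fit in which 14.8% of all genes had an unadjusted p under 0.05. For Angptl8 the unadjusted p was 0.0750 in edgeR's main fit, 0.107 with DESeq2 and at lowest 0.0164 in edgeR with 1 mouse left out. Endothelial lipase, Lipg, was the only tested gene among the other secreted lipases, at 3.83 ± 1.19 and 3.34 ± 1.01 CPM.

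Of 8 receptors and partners tested, 1 had an unadjusted p under 0.05, beside 8.40% of all genes. Lrp1, a large endocytic receptor for lipoprotein remnants, was at 515, 545, 647, 575 and 565 CPM in Axl KO mice and at 643, 669, 682, 599 and 841 CPM in WT mice. It was lower than in every WT mouse in 4 of 5 Axl KO mice. The log2 fold change was -0.27 (SE 0.0923, 95% interval -0.47 to -0.07, unadjusted p = 0.0121, adjusted p = 0.571 by edgeR's quasi-likelihood test; exact permutation test, p = 0.0238). It stayed between -0.32 and -0.19 when single mice were left out. The sorting receptor Sorl1 was at 89.5 ± 33.5 and 66.2 ± 18.1 CPM (log2 fold change 0.43, adjusted p = 0.646 by the same test).

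Of 12 other transport and binding proteins tested, 2 had an unadjusted p under 0.05, both with higher means in Axl KO mice. Over all genes the share was 8.40%, and 4.54% for higher means. Slc27a4, which encodes FATP4, was at 31.7 ± 2.00 CPM in Axl KO mice and 28.4 ± 1.28 CPM in WT mice (log2 fold change 0.16, SE 0.0639, adjusted p = 0.571 by edgeR's quasi-likelihood test), and 4 of 5 Axl KO mice were above every WT mouse. Mfsd2a, a lysophospholipid transporter, had 2.93, 1.05, 0.233, 0.291 and 35.9 CPM in Axl KO mice and 0.137, 0.106, 1.97, 1.55 and 0.755 CPM in WT mice. Its log2 fold change of 3.09 (adjusted p = 0.571) rested on Axl KO replicate 5 alone and was 0.29 without that mouse. The gene of the group with the highest CPM, Acsl1, an acyl-CoA synthetase that traps fatty acids in the cell, was at 3656 ± 413 and 3428 ± 223 CPM (0.09, SE 0.0817, adjusted p = 0.764).

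Of 9 regulators of lipid uptake, 2 had an unadjusted p under 0.05, both with lower means in Axl KO mice. Over all genes the share was 8.40%, and 3.86% for lower means. Tcf15, an endothelial transcription factor that acts with MEOX2 on fatty acid uptake genes, was at 4.12 ± 0.784 CPM in Axl KO mice and 5.68 ± 0.903 CPM in WT mice (log2 fold change -0.45, SE 0.172, adjusted p = 0.571 by edgeR's quasi-likelihood test). Vegfb, a growth factor linked to endothelial fatty acid uptake, was at 67.4 to 78.9 CPM in Axl KO mice and 74.9 to 89.5 CPM in WT mice (-0.16, SE 0.0640, adjusted p = 0.571). Pparg, the master regulator of adipocytes that controls Lpl, Cd36 and Fabp4, was at 363 ± 10.4 and 340 ± 17.2 CPM (0.10, SE 0.0547, adjusted p = 0.645), and its exact permutation test gave p = 0.0476. Neither the genes of capillaries nor those of adipocytes in this group passed the adjusted test.

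**Figure D5:**
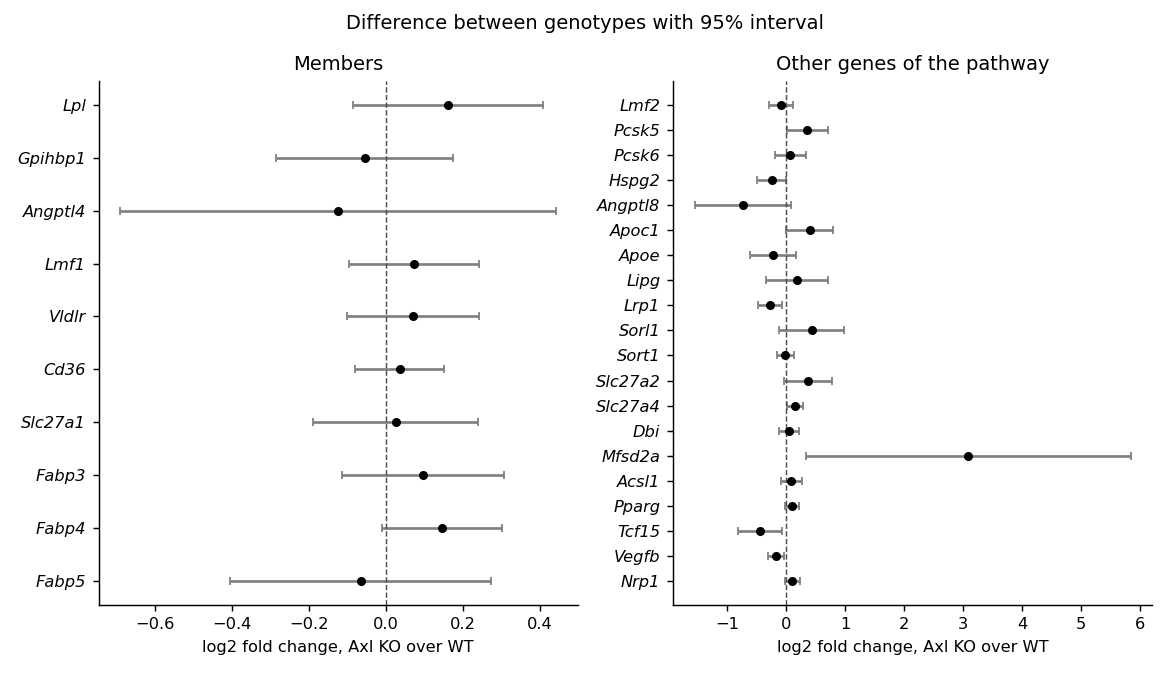
Log2 fold change of Axl KO over WT mice (points) with its 95% interval (bars) from edgeR's quasi-likelihood fit on 5 mice per genotype, for the 10 members (left) and for named genes of the wider pathway (right), on axes of different range. All 10 intervals on the left include 0 and lie between -0.69 and 0.44, and Mfsd2a on the right, at 3.09, has the widest.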

How the data were processed

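RNA of iBAT was sequenced from 5 Axl KO and 5 WT mice on HFD, 1 library per mouse. The authors deposited 1 table of raw counts per mouse, which hold 41249 Ensembl gene identifiers. Their paper names Trim Galore, hisat2 and GRCm38, whereas the submitters' processing notes name Trimmomatic 0.36, STAR 2.6.1c and GRCm38.p5. The sample records name polyA RNA and the paper depletion of rRNA. The counting tool, its strand setting and the rule for reads with several matches are not given in the sources used here. The deposited counts were normalised by TMM, and genes with a mean CPM above 1 (13739) were tested with edgeR 4.0.16 (glmQLFit and glmQLFTest, R 4.3.3) on all 10 mice without covariates, with Benjamini-Hochberg adjustment over all of them and a threshold of 0.05. The procedure was tested on simulated data. CPM values are TMM-normalised, SE and 95% intervals come from this fit, and single genes were also compared by a two-sided exact permutation test (scipy 1.17.1). Means are given with SD. Gene positions, lengths and sequences are from the GENCODE M21 annotation and transcripts of GRCm38, and 41163 identifiers had an entry there.

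The 10 members, the wider list and the marker lists were chosen with earlier results of these data known. Named were all members, Axl, and, in each role of the wider list, the 3 tested genes with the smallest p and the 2 most abundant, with the 2 most abundant of each marker list. Some of these appear only in the plot of differences, and Cldn5, Egfl7, Dio2, Cox8b, Cox7a1, Trem2 and Hoxc9 were named after their values were seen. The values of 1 gene of the wider list are not reported here. Alternatives were DESeq2 1.42.0, RLE size factors, another or no filter on low counts, protein-coding genes alone, a robust fit, a replicate block and leaving out each mouse, and, chosen after seeing the data, the length of the principal transcript. Counts of any pair of mice differed by more than sampling noise. With 5 against 5 mice the exact permutation test cannot give a p below 0.00794.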

Additional observations from a re-analysis of the deposited data

Results flagged for a closer look

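In groups of 5 mice, a mouse was singled out when its gap to the nearest other mouse took up more than 0.71 of the range of its genotype. Of 64 groups looked at over 32 genes, 10 had such a mouse, and chance flags about 1 in 20, or 3.2 groups. Among the 10 members, Gpihbp1 was low in WT replicate 1 at 56.2 CPM (nearest mouse 66.4). Cd36 was low in the same mouse at 3398 CPM (nearest mouse 3587). Slc27a1 was low in WT replicate 5 at 149.9 CPM (nearest mouse 171). Fabp3 was low in Axl KO replicate 1 at 654 CPM (nearest mouse 863). Fabp4 was low in Axl KO replicate 3 at 6014 CPM (nearest mouse 7149).

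Among the other genes, Axl was low in Axl KO replicate 4 at 0.437 CPM (nearest mouse 1.69). Pcsk5 was high in Axl KO replicate 5 at 21.8 CPM (nearest mouse 14.9), and Mfsd2a was high in the same mouse at 35.9 CPM (nearest mouse 2.93). Hspg2 was high in WT replicate 5 at 339.6 CPM (nearest mouse 255.5). Slc27a2 was low in Axl KO replicate 3 at 113.5 CPM (nearest mouse 202.5).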

How the results depend on the processing

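The count of members past an adjusted p of 0.05 was 0 in all 17 alternatives run. DESeq2 called 9 of all genes against 1 in edgeR. At an unadjusted p under 0.05, 1 member (Fabp4) passed with DESeq2 and 1 (Fabp4) with the robust fit. With single mice left out, the number of genes called stayed at 1, genes at an unadjusted p under 0.05 ranged from 815 to 2028 (the latter without Axl KO replicate 3), members from 0 to 2 and other genes of the pathway from 2 (without WT replicate 5) to 11 (without Axl KO replicate 3).

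With single mice left out, the log2 fold change ran, with no adjusted call, from -0.106 (without WT replicate 1) to 0.0287 (without Axl KO replicate 1) for Gpihbp1, -0.258 (without Axl KO replicate 4) to 0.0772 (without WT replicate 3) for Angptl4, also turning to 0.0306 without Axl KO replicate 5, -0.0534 (without Axl KO replicate 2) to 0.0978 (without Axl KO replicate 3) for Slc27a1, -0.187 (without WT replicate 3) to 0.0641 (without WT replicate 5) for Fabp5, -0.0308 to 0.132 for Pcsk6, -0.0521 to 0.0244 for Sort1 and -0.0098 to 0.0999 for Dbi. No member changed sign under another normalisation, filter or tool. The cause of these shifts was not tested.

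The labels give both genotypes replicate numbers 1 to 5 and do not say whether the numbers pair mice. Deviations of same-numbered mice from their group means had r between -0.36 and 0.37 over genes. This check cannot exclude pairing, and the main fit treated the mice as unpaired. With the replicate block 1 gene was called, 1052 genes, 0 members and 5 other genes of the pathway had an unadjusted p under 0.05. Mfsd2a was below the filter of filterByExpr and has no value there. Members held from 175 (Fabp5) to 63615 (Fabp4) counts per mouse, so counting error weighs most on Fabp5.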
